A study of Mus musculus with 6 samples.

Results

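The Six-Eya-Dach genes form a small transcription factor network of the embryonic head, and 9 of its members (Six2, Six4, Six5, Eya1, Eya2, Eya3, Eya4, Dach1 and Dach2) were followed in heads of mouse embryos that lack the histone demethylase Jarid1b. The members were taken by name from array rows annotated with a single gene symbol, and all 9 of 9 were measured, each by a single probe set, among 21789 such probe sets for 19938 genes. RNA came from heads of E8.5 C57BL/6 embryos in pools of 4 and was measured on Affymetrix whole-transcript gene arrays. There were 3 pools of Jarid1b knockouts, in which both copies of the gene carry a Cre-deleted exon in all tissues, and 3 pools of Jarid1b heterozygotes, which carry the same deletion on 1 copy and served as controls, so that no wild-type level was available. The question was whether these head regulators were transcribed at another level in knockouts at this stage. None of the 9 genes passed the test between genotypes, and every 95% confidence interval stayed within 1.26-fold in either direction.

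The network was first worked out in the Drosophila eye, where sine oculis, eyes absent and dachshund gave the vertebrate families their names. Six-family proteins bind DNA through a homeodomain, Eya proteins have no DNA-binding domain and act on Six-family proteins as coactivators that also carry a phosphatase activity, and Dach proteins are relatives of the Ski corepressors. In vertebrate embryos these genes mark the band of ectoderm around the anterior neural plate from which the cranial placodes of the ear, nose and cranial ganglia arise, and they are also used in head mesenchyme, somites, kidney and muscle. Jarid1b removes methyl groups from lysine 4 of histone H3 near transcription start sites.

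Start sites are therefore shown first for 4 members, chosen for how they behaved between pools: Six2 spread most widely, Six5 had the largest difference in means, Eya3 had groups that did not overlap, and Dach1 had no difference in means. Each line holds the 250 bases before an annotated start, 5′ to 3′ on the strand of the gene, from RefSeq on GRCm38.p6. Capitals mark a GC box (GGGCGG) or a CCAAT box (CCAAT) on either strand, with overlapping matches counted separately.
Six2: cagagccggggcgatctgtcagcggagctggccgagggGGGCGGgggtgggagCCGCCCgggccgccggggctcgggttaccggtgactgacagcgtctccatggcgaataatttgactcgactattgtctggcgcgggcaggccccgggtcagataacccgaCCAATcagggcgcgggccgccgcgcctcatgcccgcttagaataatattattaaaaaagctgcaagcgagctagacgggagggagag
Six5: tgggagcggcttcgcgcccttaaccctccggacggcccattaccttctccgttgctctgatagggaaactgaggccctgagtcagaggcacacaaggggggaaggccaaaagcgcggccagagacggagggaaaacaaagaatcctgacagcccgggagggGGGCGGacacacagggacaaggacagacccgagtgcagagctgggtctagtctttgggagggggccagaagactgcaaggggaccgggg
Eya3: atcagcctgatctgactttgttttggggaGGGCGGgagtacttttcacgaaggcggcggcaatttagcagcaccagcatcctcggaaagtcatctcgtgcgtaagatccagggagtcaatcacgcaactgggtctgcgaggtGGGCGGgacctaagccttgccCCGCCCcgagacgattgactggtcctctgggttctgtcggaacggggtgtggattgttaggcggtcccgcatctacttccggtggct
Dach1: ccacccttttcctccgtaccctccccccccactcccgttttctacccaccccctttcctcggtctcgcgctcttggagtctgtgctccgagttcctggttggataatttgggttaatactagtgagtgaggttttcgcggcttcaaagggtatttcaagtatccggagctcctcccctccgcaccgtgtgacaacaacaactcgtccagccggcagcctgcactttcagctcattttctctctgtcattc
The windows lie at chr17:85688255-85688504 on the minus strand (Six2), chr7:19094294-19094543 on the plus strand (Six5), chr4:132638796-132639045 on the plus strand (Eya3) and chr14:98169766-98170015 on the minus strand (Dach1).

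Entries were found for 7 of the 9 genes, with 10 windows between them, and Eya1 and Eya2 had no entry. A GC box lay in 8 of the 10 member windows, against 32.7% of all 32851 windows of this length. By gene, it was found for 6 of the 7. The Six4 windows overlap each other and hold the same GC box, as do the Eya4 windows, so the 10 windows are not independent. The GC content of the member windows ran from 45.6% to 74%, against a median of 52.4% over all windows. The Eya3 window held 3 GC boxes and the Six2 window 2, while the Dach1 window had none. A CCAAT box was found for Six2, Six4 and Dach2 (33.8% of all windows), and the sequence TATAAA for Dach2 alone (12.4%). The sequence TCAGGTT, the core of the MEF3 element that Six-family proteins bind, was found in a window of Six4 and in no other member window (3.49% of all windows). The ratio of observed to expected CpG was over 0.6 in 8 of the 10 windows, against 34% of all windows. It was 1.02 for Six2, 0.857 for Eya3, 0.761 for Dach1 and 0.546 for Six5. The Dach2 windows were at 1.08 and 0.462, and that at 1.08 ends in a repeat of ca and cg. These matches describe the letters of the windows and not bound sites.

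Jarid1b (Kdm5b in the annotation), the targeted gene, was checked first. Its log2 intensity was 7.63, 7.47 and 7.71 in knockout replicates 1, 2 and 3, against 9.17, 9.12 and 9.16 in heterozygote replicates 1, 2 and 3. The log2 fold change, here and below the knockout mean minus the heterozygote mean, was -1.55 ± 0.07 (standard error, limma, adjusted p = 6.295e-04). No second probe set of the 21789 reached an adjusted p under 0.05, so that 0.00459% were called and none of the 9 network genes was among them. Whether the Kdm5b probes lie in the deleted exon was not examined. Probes outside it would report the level of the rest of the transcript and not the deletion itself. At an unadjusted p under 0.05, 0 of the 9 passed, against 10.6% of all probe sets. Their unadjusted p-values ran from 0.157 for Eya4 to 0.9965 for Dach1, and their adjusted p-values from 0.601 to 0.999. Exact permutation tests were also run gene by gene, for which 3 pools a genotype allow no p smaller than 0.1. They gave that smallest p for Eya1, Eya3 and Eya4, and between 0.2 and 1 for the others.

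**Figure D1:**
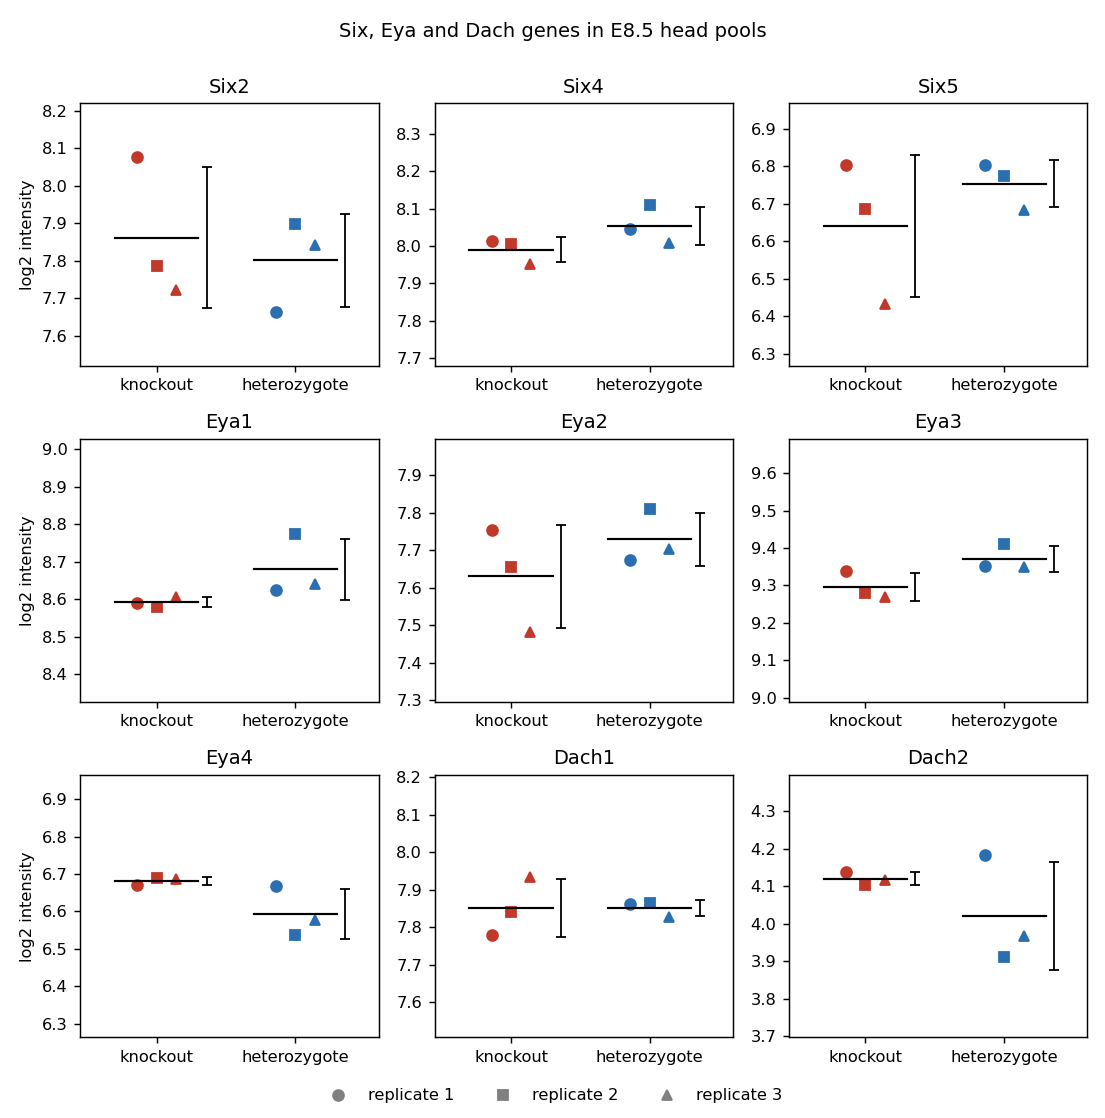
Log2 intensity (y axis) of the 9 genes in each pool, with knockout pools in red and heterozygote pools in blue, symbols for the replicates, a black line at the mean of 3 pools and a bar of 1 SD to either side. Each panel spans 0.7 log2 units. The groups are apart only for Eya1, Eya3 and Eya4, by 0.019, 0.012 and 0.0019, and Six2 and Six5 spread most among the knockout pools.

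The Six-family genes encode the DNA-binding part of the network. Six2, which keeps kidney progenitors undifferentiated and is also used in head mesenchyme, had log2 intensities of 8.08, 7.79 and 7.72 in knockout replicates 1, 2 and 3, against 7.66, 7.90 and 7.84 in heterozygote replicates 1, 2 and 3. Knockout replicate 1 was the highest pool and heterozygote replicate 1 the lowest, and the groups overlapped. On the log2 scale the difference was 0.06 (limma, 95% interval -0.18 to 0.31, adjusted p = 0.857). Its sign rested on single pools, since it was -0.05 without knockout replicate 1 and -0.0082 without heterozygote replicate 1. The range of Six2 over the 6 pools was 0.41, wider than that of 83% of all genes.

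Six4, a factor of muscle precursors and sensory ganglia, was much tighter. Its log2 intensities were 8.01, 8.01 and 7.95 in knockout replicates 1, 2 and 3, against 8.05, 8.11 and 8.01 in heterozygote replicates 1, 2 and 3. Knockout replicate 1 lay above heterozygote replicate 3 by 0.004, so the groups overlapped by that margin only. The difference was -0.06 (limma, 95% interval -0.19 to 0.06, adjusted p = 0.703).

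Six5, the neighbour of the myotonic dystrophy kinase gene Dmpk and a gene whose loss gives cataracts in mice, had the largest difference in means. Its log2 intensities were 6.80, 6.69 and 6.43 in knockout replicates 1, 2 and 3, against 6.80, 6.77 and 6.68 in heterozygote replicates 1, 2 and 3. Knockout replicate 3 stood 0.26 below the next knockout pool. The log2 fold change was -0.11 (limma, 95% interval -0.34 to 0.11, adjusted p = 0.702), and it was -0.0092 without knockout replicate 3.

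The Eya genes encode the coactivators. Eya1, the gene of branchio-oto-renal syndrome in people and one needed for the ear and kidney, had log2 intensities of 8.59, 8.58 and 8.61 in knockout replicates 1, 2 and 3, against 8.62, 8.77 and 8.64 in heterozygote replicates 1, 2 and 3. All knockout pools lay below all heterozygote pools, with a gap of 0.019 between the groups, and heterozygote replicate 2 was the highest pool. The knockout mean differed by -0.09 (limma, 95% interval -0.23 to 0.05, adjusted p = 0.618). Without heterozygote replicate 2 it was -0.04.

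Eya2, which is expressed in cranial placodes and early muscle, had log2 intensities of 7.76, 7.65 and 7.48 in knockout replicates 1, 2 and 3, against 7.68, 7.81 and 7.70 in heterozygote replicates 1, 2 and 3. As for Six5, knockout replicate 3 was the lowest pool, and the groups overlapped. Its log2 fold change was -0.10 (limma, 95% interval -0.29 to 0.09, adjusted p = 0.689), and it was -0.02 without knockout replicate 3.

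Eya3, a broadly expressed member that in mammals also switches the thyrotropin gene with day length, was measured with the smallest standard error of the 9 genes, 0.05. Its log2 intensities were 9.34, 9.28 and 9.27 in knockout replicates 1, 2 and 3, against 9.35, 9.41 and 9.35 in heterozygote replicates 1, 2 and 3. The groups did not overlap, and the gap between them was 0.012. In log2 units the difference was -0.08 (limma, 95% interval -0.20 to 0.05, adjusted p = 0.631), and the lower bound is a 1.15-fold decrease.

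Eya4, which is mutated in hereditary hearing loss in people, ran the other way. Its log2 intensities were 6.670, 6.690 and 6.687 in knockout replicates 1, 2 and 3, against 6.668, 6.538 and 6.578 in heterozygote replicates 1, 2 and 3. Heterozygote replicate 1 lay at the level of the knockout pools, and the gap between the groups was 0.0019. The log2 fold change was 0.09 (limma, 95% interval -0.04 to 0.22, adjusted p = 0.601), and the knockout pools varied by an SD of 0.011, against 0.067 in heterozygotes (n = 3 each).

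The Dach genes encode the corepressors. Dach1, which is used in the developing eye, limb and brain, had log2 intensities of 7.78, 7.84 and 7.93 in knockout replicates 1, 2 and 3, against 7.86, 7.86 and 7.83 in heterozygote replicates 1, 2 and 3. The means were equal to the second decimal, at 7.85 ± 0.08 in knockouts and 7.85 ± 0.02 in heterozygotes (SD, n = 3 pools each). Knockout replicate 3 was the highest pool here, while it was the lowest for Six4, Six5, Eya2 and Eya3. The interval of the log2 fold change ran from -0.14 to 0.14 (limma, adjusted p = 0.999).

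Dach2, the X-linked relative of Dach1, lay at a low intensity, among the dimmest 7263 probe sets. Its log2 intensities were 4.14, 4.10 and 4.12 in knockout replicates 1, 2 and 3, against 4.18, 3.91 and 3.97 in heterozygote replicates 1, 2 and 3. The knockout pools fell inside the range of the heterozygotes. Its log2 fold change was 0.10 (limma, 95% interval -0.08 to 0.28, adjusted p = 0.671), and it was 0.18 without heterozygote replicate 1, with an unadjusted p of 0.024. The pools also differed in the level of another X-linked gene. Xist, transcribed from the inactive X of females, was at 8.82, 3.74 and 8.91 in knockout replicates 1, 2 and 3, against 10.17, 4.22 and 10.08 in heterozygote replicates 1, 2 and 3. The Y-linked Eif2s3y was at 7.89, 8.37 and 7.70 in knockout replicates 1, 2 and 3, against 6.59, 8.23 and 6.35 in heterozygote replicates 1, 2 and 3, and the Y-linked Uty and Kdm5d had log2 fold changes of 0.90 and 0.81. Without replicate 2 of each genotype, the Dach2 log2 fold change was 0.05 (unadjusted p = 0.613). The part of the sex of the pooled embryos in the Dach2 values was not tested.

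**Figure D2:**
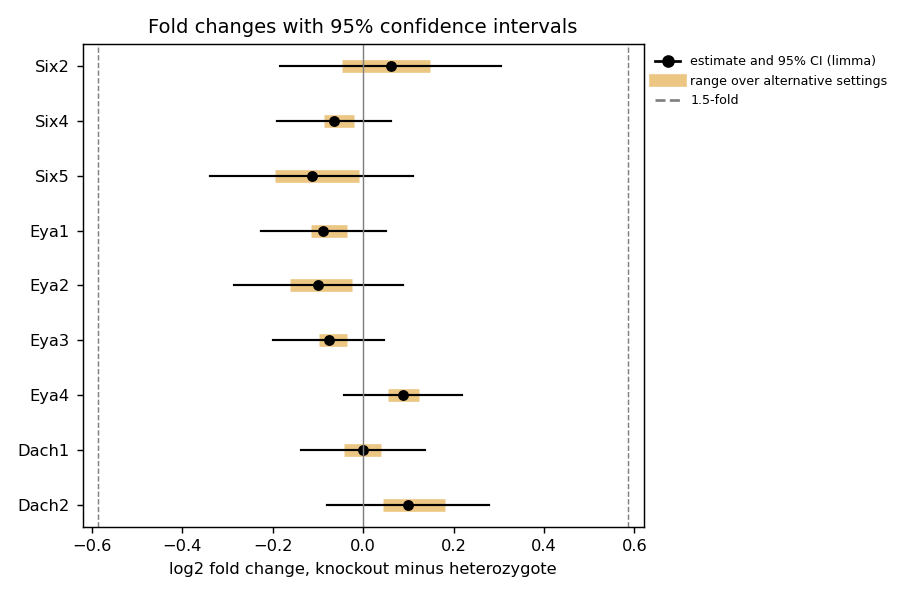
Log2 fold change, knockout minus heterozygote (x axis), of the 9 genes as points with 95% confidence intervals from limma, over orange bars that span the values under the alternative settings. All intervals include 0 and end well inside the dashed lines at 1.5-fold, the lowest bound being -0.34 for Six5 and the highest 0.31 for Six2.

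Read together, 6 of the 9 genes had a negative log2 fold change and 3 a positive one, where 50.3% of all probe sets were negative. The median over the 9 genes was -0.064, beside -0.0007 over all probe sets. It shrank to -0.02 after quantile normalization and to -0.02 after cyclic loess normalization between arrays. It was also -0.02 without knockout replicate 3 and -0.04 without heterozygote replicate 2. The share of negative values moved with brightness, at 70.2% of the brightest 7263 probe sets, 50.1% of the middle 7263 and 30.4% of the dimmest 7263. Six2, Six4, Eya1, Eya3 and Dach1 are in the brightest class, Six5, Eya2 and Eya4 in the middle class and Dach2 in the dimmest. The median log2 fold change of the brightest class was -0.035 and that of the dimmest 0.056.

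Groups that did not overlap were seen for 2 genes with knockout below heterozygote, Eya1 and Eya3, and for 1 with knockout above, Eya4. Among all probe sets, 9.03% had knockout below heterozygote and 8.03% knockout above. In the brightest class, which holds Eya1 and Eya3, 16.8% had knockout below, and in the middle class, which holds Eya4, 8.99% had knockout above. Beside these shares, counts of 2 and 1 among 9 genes are no result about the network.

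Within the network, the pools did not order the genes alike. Heterozygote replicate 2 was the highest of the 6 pools for Six4, Eya1, Eya2 and Eya3 and the lowest for Eya4 and Dach2, 2 genes in which heterozygote replicate 1 was above the other heterozygote pools. Knockout replicate 3 was the lowest pool for 4 genes. The summed linear intensity of the 9 genes was 2096 to 2228 in knockouts and 2184 to 2308 in heterozygotes, so that the groups overlapped. In a bulk sample, fewer cells of a type and less RNA per cell cannot be told apart.

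**Figure D3:**
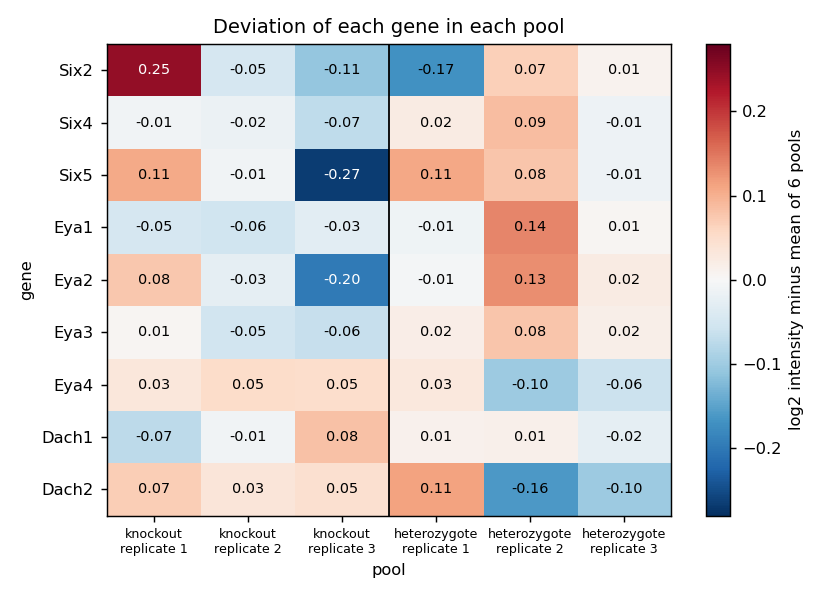
Log2 intensity of each gene (rows) in each pool (columns, knockout pools to the left of the black line) minus its mean over the 6 pools, in red where above and in blue where below. The largest deviations are 0.25 for Six2 in knockout replicate 1 and -0.27 for Six5 in knockout replicate 3, and heterozygote replicate 2 is above the mean for the genes from Six2 to Eya3 and for Dach1 and below it for Eya4 and Dach2.

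Over only 6 pools, the pattern of every member resembled that of many other genes. Between 108 genes (Dach2) and 419 genes (Eya2) of the 19929 outside the network had a Pearson r over 0.9 with a member over the 6 pools. The most alike were Ifit2 for Six2, Coasy for Six4, Gja1 for Six5, Aven for Eya1, Adipor1 for Eya2, Mns1 for Eya3, Mir132 for Eya4, Gm10578 for Dach1 and P2ry14 for Dach2, with r between 0.988 for Mir132 and 0.996 for Coasy. These values describe 6 points that include both genotypes. How many genes would reach such an r over 6 points without a link was not worked out, so no shared regulation is shown.

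The relatives and partners of the network were measured for 11 of 12 listed genes, and an unadjusted p under 0.05 was met upward by 1 and downward by 2 (5.97% and 4.66% of all probe sets), an adjusted one by none in limma. Six3 and Six6 pattern the forebrain and the eye field and belong to a different branch of the Six-family genes. Six6 was at 5.98, 5.91 and 5.86 in knockout replicates 1, 2 and 3, against 5.39, 5.86 and 5.70 in heterozygote replicates 1, 2 and 3, which gives a difference of 0.27 ± 0.11 (standard error, limma, adjusted p = 0.465). Six3 was at 7.32, 7.26 and 7.30 in knockout replicates 1, 2 and 3, against 7.33, 7.55 and 7.50 in heterozygote replicates 1, 2 and 3, which gives a difference of -0.17 ± 0.07 (standard error, limma, adjusted p = 0.457). The groups did not overlap for either gene, in opposite directions, beside 8.03% of all probe sets with knockout above and 9.03% with knockout below. Tle1, a Groucho corepressor that Six-family proteins can recruit, had a log2 fold change of -0.15 (limma, adjusted p = 0.417), and Skor1, a relative of Ski, of 0.14 (adjusted p = 0.706).

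Of 23 listed regulators of placodes, 22 were measured, 12 with a positive and 10 with a negative log2 fold change and a median of 0.02. An unadjusted p under 0.05 was met upward by Neurog1 and Pitx3 and downward by Gata3, which is 2 and 1 of 22 beside 5.97% and 4.66% of all probe sets. Gata3, a zinc finger factor of the otic placode, had the smallest unadjusted p of the list, 4.842e-04. It was at 7.63, 7.57 and 7.61 in knockout replicates 1, 2 and 3, against 7.93, 7.88 and 7.88 in heterozygote replicates 1, 2 and 3, which gives a difference of -0.30 ± 0.05 (standard error, limma, adjusted p = 0.356). Every knockout pool was thus below every heterozygote pool by more than the spread within either group, although the adjusted threshold was not met. Groups with knockout below and no overlap were seen for 9.03% of all probe sets, and for 16.8% of the brightest class, which holds Gata3. Neurog1, which starts neurogenesis in placodes, was at 0.21 (limma, adjusted p = 0.413), Pax6 at 0.15 (adjusted p = 0.556) and Dlx3, a factor of the placode border, at -0.16 (adjusted p = 0.551). Pitx3 of the lens, named after its values were seen because it was among these 3, was at 0.15 (adjusted p = 0.432).

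Genes described as targets of Six-family proteins gave no call, with 5 of 8 positive, none at an unadjusted p under 0.05 and a median of 0.04. The most extreme were Myod1, the muscle determination factor, at 0.18 and Gdnf, a growth factor of the kidney and nervous system, at 0.16, and Ezr at -0.13 and Sall1 at -0.03 on the log2 scale. Of 17 genes of the FGF, BMP and Wnt signals that place the placode field, 10 were positive and 7 negative, with a median of 0.0053. In limma, an unadjusted p under 0.05 was met upward by 1, Fgf10, and downward by 0, beside 5.97% and 4.66% of all probe sets. An adjusted one was met by none. Groups did not overlap for 3 with knockout above and 1 with knockout below, beside 8.03% and 9.03%. Fgf10 was at 0.15 (limma, adjusted p = 0.413) and Sfrp2, a Wnt antagonist, at 0.14 (adjusted p = 0.478), while Bmp4 was at -0.16 (adjusted p = 0.485) and the Wnt antagonist Dkk1 at -0.14 (adjusted p = 0.675).

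**Figure D4:**
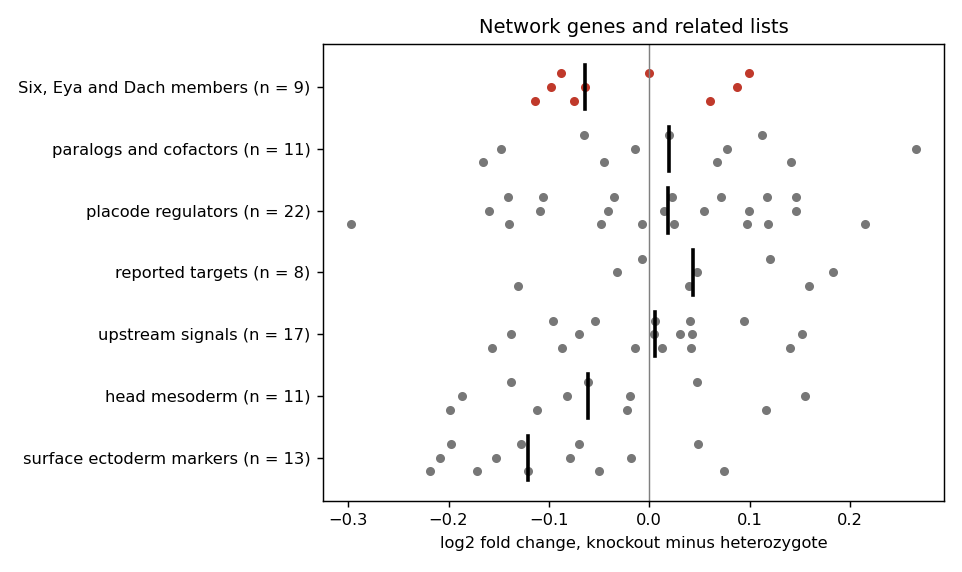
Log2 fold change, knockout minus heterozygote (x axis), of each measured gene in the network (red points) and in 6 related lists (gray points, with the number measured), spread vertically for legibility, with a black bar at the median of each list. The network genes lie between -0.11 and 0.10, while the other lists reach from -0.30 for Gata3 to 0.27 for Six6, and the median is lowest for surface ectoderm markers at -0.12.

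The cells that carry the network make up part of each pool, and their markers were set beside the results. Surface ectoderm markers were below 0 for 11 of 13 genes, with a median log2 fold change of -0.12. An unadjusted p under 0.05 was met downward by 3 of the 13, beside 4.66% of all probe sets, and an adjusted one by none in limma. Of the 13, 9 are in the brightest class, where 70.2% of probe sets were negative, and 4 in the middle class. Their summed linear intensity was 7775 to 8590 in knockouts and 9024 to 9202 in heterozygotes, with knockout replicate 3 the lowest, and these groups did not overlap. A linear sum weighs the brightest genes most, here Krt18 and Krt8. Krt18 had a mean log2 intensity of 11.33 in knockouts and 11.52 in heterozygotes, and Krt8 of 10.99 and 11.11. Gene by gene, 5 of the 13 had knockout below without overlap and 0 had knockout above, beside 9.03% and 8.03% of all probe sets. The 2 lowest were Cdh1, the epithelial cadherin, at -0.22 (limma, adjusted p = 0.438) and the epithelial splicing factor Esrp1 at -0.21 (adjusted p = 0.391), and the 2 highest were Krt19 at 0.07 and Grhl3 at 0.05. Head mesoderm genes had a median of -0.06 over 11 of 12 listed genes. Of these 8 were negative, beside 50.3% of all probe sets, and 2 met an unadjusted p under 0.05, both downward, beside 4.66%. By brightness, 6 of the 11 are in the brightest class, 3 in the middle class and 2 in the dimmest. In these classes 70.2%, 50.1% and 30.4% of probe sets were negative. Their summed intensity was 2800 to 2818 in knockouts and 2826 to 2992 in heterozygotes, which did not overlap by a narrow margin. Gene by gene, 3 of the 11 had knockout below without overlap and 0 had knockout above. The shares of all probe sets were 9.03% and 8.03%, and 16.8% of the brightest class had knockout below. How often the sums of such lists do not overlap was not worked out, so neither sum is a result about its tissue. Tcf21 and Isl1, factors of pharyngeal muscle and the second heart field, were at -0.20 and -0.19, and Msc and Foxc2 at 0.16 and 0.12. Knockout replicate 3 was also the pool with the lowest sum of visceral endoderm markers, 3623. Whether the surface ectoderm markers reported surface ectoderm alone was not tested. The part of surface ectoderm or head mesoderm in the values of the 9 network genes was not tested either.

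The head neural ectoderm, which lies next to the placode field, had markers on both sides. Of its 10 genes, 5 were positive and 5 negative, and an unadjusted p under 0.05 was met by 3 upward and 2 downward, beside 5.97% and 4.66% of all probe sets, an adjusted one by none in limma. The 2 lowest were Hesx1, a homeobox repressor of the anterior forebrain, and Rax, a homeobox factor of the eye field. Hesx1 was at 7.45, 7.60 and 7.62 in knockout replicates 1, 2 and 3, against 7.96, 7.96 and 7.92 in heterozygote replicates 1, 2 and 3, a difference of -0.39 ± 0.06 (standard error, limma, adjusted p = 0.356). Rax was at -0.20 (adjusted p = 0.413), and the groups did not overlap for either gene. The 2 highest were En2, a homeobox factor of the midbrain and hindbrain, and Zic1, a zinc finger factor of the dorsal neural tube. En2 was at 6.87, 7.17 and 7.14 in knockout replicates 1, 2 and 3, against 6.67, 6.78 and 6.64 in heterozygote replicates 1, 2 and 3, a difference of 0.37 ± 0.09 (standard error, limma, adjusted p = 0.388), again without overlap. Zic1 was at 0.21 (adjusted p = 0.445). In all, 3 of the 10 genes had knockout below heterozygote without overlap and 2 had knockout above. The remaining ones were Otx2 at -0.08, below, and Gbx2 at 0.09, above. Of all probe sets, 9.03% had knockout below heterozygote without overlap and 8.03% knockout above. The summed intensity of the 10 genes was 2667 to 2709 in knockouts and 2681 to 2808 in heterozygotes.

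Visceral endoderm and primitive blood markers differed most in single pools. Visceral endoderm markers, 10 genes with a median log2 fold change of -0.27, summed to 3623 in knockout replicate 3 and to between 6841 and 8030 in the other 5 pools. In that pool Six4, Six5, Eya2 and Eya3 were at their lowest and Dach1 at its highest. The outermost endoderm genes were Apom at -0.64 and Afp at -0.50, and Hnf4a at 0.0035 and Amn at -0.04, and none had an unadjusted p under 0.05. Primitive blood markers summed to 388, 1882 and 548 in knockout replicates 1, 2 and 3, against 399, 303 and 399 in heterozygote replicates 1, 2 and 3. All 7 measured blood genes had a positive log2 fold change, and 1 of them met an unadjusted p under 0.05 in limma. The embryonic globins Hbb-bh1 and Hba-x were at 1.66 and 1.57, and Alas2 and Epor at 0.06 and 0.08. Neural crest, endothelial, heart and somite lists had sums that overlapped between genotypes. On the log2 scale the neural crest genes ran from Snai1 and Snai2 at -0.12 and -0.11 to Sox10 and Tfap2b at 0.13 and 0.29. Somite genes ran from Tcf15 and Meox1 at -0.14 and -0.03 to Tbx6 and Pax1 at 0.23 and 0.29, endothelial genes from Etv2 and Tek at -0.19 and -0.15 to Tie1 and Robo4 at 0.05 and 0.22, and heart genes from Hand1 and Myl7 at -0.27 and -0.10 to Myh6 and Nppa at 0.11 and 0.34. In limma, an unadjusted p under 0.05 was met upward by 1 of 8 neural crest, 2 of 8 somite and 1 of 9 endothelial genes. Downward it was met by 1 endothelial gene, and no heart gene met it in either direction. Over all probe sets, the shares were 5.97% upward and 4.66% downward. No gene of these lists had an adjusted p under 0.05 in limma. Array values have no true zero, so none of these markers could be called absent, and the part of the endoderm and blood signals in the network values was not tested.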

How the data were processed

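RNA of 6 pools of 4 E8.5 heads, 3 of Jarid1b knockouts and 3 of Jarid1b heterozygotes, was measured on 1-colour Affymetrix mouse Gene 1.0 ST arrays. The deposited values are intensities that the authors summarized by RMA with Affymetrix Power Tools (settings and versions not given in the sources used here). RMA equalizes the distributions of arrays, so a shift of all genes together cannot be seen. The values run from 2.53 to 11741 with medians of 58.1 to 62.9 per array, were read as linear, and log2 was taken. Of 35556 rows, 21789 carry exactly 1 gene symbol and were tested, while 1621 with several and 12146 with none were not. Symbols of 21698 were updated by gene number from RefSeq (GRCm38.p6). In lists, a gene with more than 1 probe set was represented by that of highest mean.

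Genotypes were compared with limma 3.58.1 in R 4.3.3, with no covariate, 95% confidence intervals and Benjamini-Hochberg adjustment over all tested probe sets. The script was tested on simulated data. The number of arrays limits the precision, with a median standard error of 0.071, and the p-values reflect only how these pools vary. The members and lists were chosen with earlier results of these data known. From each list the 2 highest and 2 lowest genes were named, and other genes only as stated. A listed gene without a single-symbol probe set was not analysed here. The main fit did not pair the pools by replicate number. Deviations from the group means of same-numbered pools correlated, over probe sets, at 0.001, 0.106 and -0.013. With 3 pools a genotype, these values cannot show whether the pools were paired. The alternatives changed the rows tested, the normalization between arrays, the variance model, the array weights, the replicate block and the pools included.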

Additional observations from a re-analysis of the deposited data

How the results depend on the processing

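The count of network genes at an unadjusted p under 0.05 was 0 in the fit of all pools and under every alternative without left-out pools, the replicate block included. It ranged from 0 to 1 when pools were left out, where Dach2 passed without heterozygote replicate 1. The median log2 fold change of the network genes lay between -0.086 and -0.02 over 16 alternatives. The count of probe sets at an adjusted p under 0.05 in limma ranged from 1 to 4 when pools were left out. Leaving out heterozygote replicate 2 gave 2, Jarid1b and Uty on the Y chromosome. It was 4 without replicate 2 of both genotypes, an alternative chosen after seeing the data, where Xist, Kdm5d and Uty were added.

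Of 143 log2 fold changes of single members under an alternative, 10 had the opposite sign, all for Six2 or Dach1, and none of these passed an unadjusted p of 0.05. Six2 was at -0.0467 without knockout replicate 1 and at -0.0082 without heterozygote replicate 1. Dach1 was at 0.0396 after quantile normalization, 0.0378 after cyclic loess and 0.0036 with array weights. It was at 0.036 without knockout replicate 1, 0.0049 without knockout replicate 2, 0.0055 without heterozygote replicate 1, 0.0063 without heterozygote replicate 2, and 0.0115 without replicate 2 of both genotypes. Over single left-out pools or pairs, values ran from -0.0467 to 0.148 for Six2 and from -0.0417 to 0.036 for Dach1. The cause was not tested. With the replicate block, the median log2 fold change was -0.064, and the block changed no call. Dach2 was not among the probe sets when dim ones were left out. With 3 arrays a genotype, changes inside the intervals given cannot be told from none.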
